A study of Mus musculus with 7 samples.

Results

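The genes examined here are 10 regulators of the switch from non-neuronal to neuronal gene expression, chosen by symbol from the deposited count table of 23366 genes: Ptbp1, Ptbp2, Rest, Rcor1, Ctdsp1, Ctdsp2, Ctdspl, Elavl3, Nova1 and Nova2. All 10 were in the table, and 9 had enough counts to be tested, Rcor1 being the exception. RNA was sequenced in 7 libraries of primary motor neurons, which had been isolated over a density gradient from spinal cords of C57BL/6 mouse embryos, labelled E13.5, and grown with CNTF, GDNF and horse serum. The 3 groups differed in the lentivirus they received, named pUltra in the labels: an empty control virus (control, 2 libraries), a virus for miR-218 knockdown (KD, 2 libraries) or one for miR-218 overexpression (OE, 3 libraries). The series' design text speaks of duplicates, but the sample titles list 3 OE libraries, and each OE value here uses all 3. All groups received 200 µM fluorodeoxyuridine, which blocks cell division, after 5 days in culture. No source used here gives the promoter that drives each transgene or the share of transduced cells.

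The polypyrimidine tract binding proteins Ptbp1 and Ptbp2 are splicing repressors. Ptbp1 is made by progenitors and non-neuronal cells, where it makes the cell skip an exon of Ptbp2 RNA so that this RNA is degraded. When the neuronal microRNA miR-124 lowers Ptbp1, Ptbp2 protein appears and neuronal exons are included. REST is a zinc finger repressor that keeps neuronal genes silent outside neurons. It recruits the corepressor CoREST, encoded by Rcor1, and the small phosphatases encoded by Ctdsp1, Ctdsp2 and Ctdspl, and miR-124 also targets Ctdsp1. Elavl3, Nova1 and Nova2 encode RNA-binding proteins of neurons that act in splicing and, for Elavl3, in RNA stability. The table counts reads per gene, so skipped or included exons were not measured.

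Mature microRNA sequences (RefSeq, GRCm38.p6) are shown first because miR-218 was the agent of the experiment, because miR-9 is known to target Rest, and because the 3 Ctdsp genes carry miR-26 hairpins. Capitals mark the seed, bases 2 to 8. 
mmu-miR-218-5p: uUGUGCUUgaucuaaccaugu
mmu-miR-9-5p: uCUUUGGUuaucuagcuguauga
mmu-miR-26a-5p: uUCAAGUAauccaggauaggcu
mmu-miR-26b-5p: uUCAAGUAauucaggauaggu
The miR-26 forms share 1 seed, which differs from the seeds of miR-218 and miR-9. In build mm9 the hairpin of Mir26b lies inside Ctdsp1 at chr1:74440884-74440968, that of Mir26a-2 inside Ctdsp2 at chr10:126432586-126432669 and that of Mir26a-1 inside Ctdspl at chr9:118940914-118941003, each on the strand of its host. The Mir26a-2 hairpin overlaps an exon of a Ctdsp2 transcript, and the other hairpins lie in introns. Each of the 3 hairpins had 0 counts in the 7 libraries.

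Matches to the miR-218 seed (AAGCACA, sense strand of the longest annotated 3' UTR) were present in Rcor1 and Ctdspl and in none of the other 8 genes. Across the 11135 tested genes with an annotated 3' UTR, 16.27% held such a match. They are shown because miR-218 was the microRNA altered. Capitals mark the 7 matching bases.
Rcor1, chr12:112351994-112352023, plus strand: ctgtgtagctgaaggggaaggcAAGCACAg
Rcor1, chr12:112353557-112353586, plus strand: gcagcttctcctcactgtagtaAAGCACAa
Ctdspl, chr9:118951121-118951150, plus strand: agtcacctctcagcctctttggAAGCACAg
The miR-26 seed match (TACTTGA, 11.59% of the same genes) was present once each in Ptbp2, Rest, Rcor1 and Ctdsp2. The match in Ctdsp2 is shown because that gene also carries a miR-26 hairpin, and the match in Rest because the gene is the repressor of the set.
Ctdsp2, chr10:126434600-126434629, plus strand: tggttgtcccaagtgttgctctTACTTGAt
Rest, chr5:77712336-77712365, plus strand: gataaaaattggcttagtaaatTACTTGAa
The miR-9 seed match (ACCAAAG, 14.59%) was present once each in Ptbp1, Ptbp2, Rest and Ctdsp2, and it is shown for the Ptbp paralogs and for Rest.
Ptbp1, chr10:79326740-79326769, plus strand: gtttctaccttcaaaattttggACCAAAGt
Ptbp2, chr3:119422257-119422286, minus strand: ctaaaactgacaaccaggtgggACCAAAGt
Rest, chr5:77715179-77715208, plus strand: atgtgttacttttctgaggcaaACCAAAGg
Elavl3, Nova1, Nova2 and Ctdsp1 held none of the 3 motifs in this window. The 3' UTRs of the switch genes ran from 1580 to 7067 bases, against a median of 1307 over tested genes. The shares of all tested genes given here are not matched for that length. A match is a description of these letters and was not tested as a site.

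Library totals ran from 1591812 to 3360686 counts, with the controls the shallowest group, and 12134 genes were tested. Counts of the miR-218 precursor gene Mir218-1 were 670 to 1126 in OE, 137 and 179 in KD, and 81 and 107 in control, so the OE libraries stand above all others (5.54-fold over control, edgeR adjusted p = 3.32e-12). Those counts check the OE labels. In CPM (edgeR's scaled counts, relative to a common library total) Mir218-1 was at 52.3 and 51.9 in control and at 42.8 and 52.5 in KD. The mature microRNA was not measured, so the knockdown was not checked. The labels name motor neurons, but of 10 motor neuron markers Mnx1 and Lhx4 had 0 counts in the 7 libraries and only 4 were tested. The summed level of the 10 was 23.95 to 45.05 CPM, against 5769 to 8037 CPM for 10 markers of neurons in general and 2687 to 4448 CPM for 10 markers of astrocytes and radial glia. A count of 0 was not taken as absence of a gene or cell type, since Hnrnpa1, a splicing factor of most cells, also had 0. Nothing in the labels states that replicate libraries are from separate cultures. The p-values therefore rest on the spread between these libraries, which may be technical.

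Of the 9 tested switch genes, Ctdsp1 rose and Elavl3 fell in KD against control, and none of the 9 was called in OE against control or in OE against KD. Calls required an edgeR quasi-likelihood adjusted p under 0.05 together with more than a 1.5-fold difference, in a fit of all 12134 tested genes. In KD the 2 calls of 9 stand beside 11.7% of all tested genes. In OE against control the 0 calls stand beside 4.91% of all tested genes, and in OE against KD beside 5.30%. At an unadjusted p under 0.05 there were 3 of the 9 in OE against control, 3 in KD against control and 1 in OE against KD, beside 19.2%, 27.4% and 20.1% of all tested genes. These shares also serve for the unadjusted counts of the lists that follow. The shares of all tested genes called (11.7% in KD against control, 4.91% in OE against control and 5.30% in OE against KD) likewise serve for the called counts of the gene and marker lists. DESeq2 and limma-voom also called 0, 2 and 0 of the 9. The CPM of KD and control did not overlap for 8 of the 9, against 53.3% of all tested genes. For OE and control this held for 3 of the 9, against 35.3%, and for OE and KD for 6 of the 9, against 37.9%. The comparisons of KD and of OE with control share the 2 control libraries.

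**Figure D1:**
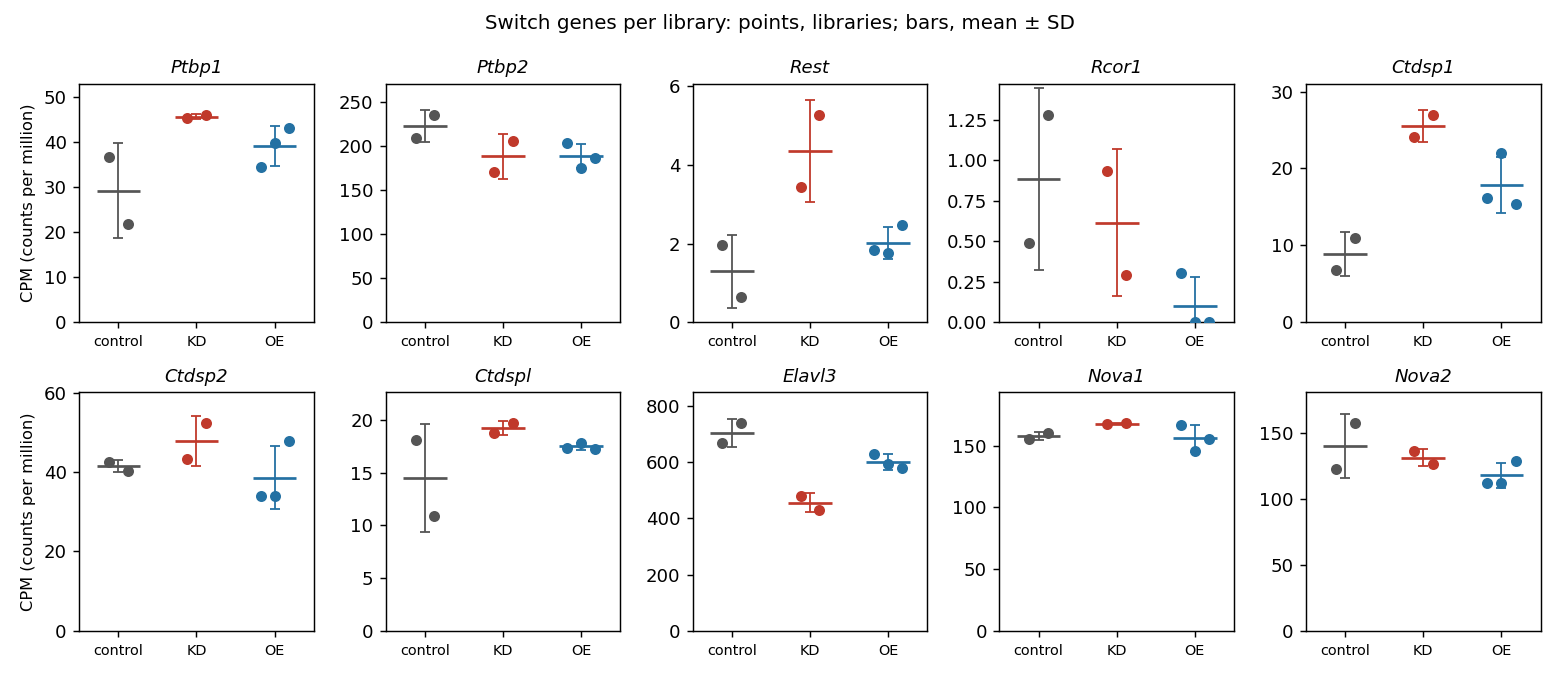
Level of each switch gene in each library, in CPM, with the group mean and SD. Ctdsp1 lies at 6.84 and 10.9 CPM in control and at 24.0 and 27.0 in KD, while Elavl3 lies at 666 and 737 CPM in control and at 479 and 431 in KD.

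Markers of other cell types differed between the same groups. In a culture, fewer cells of a type and less RNA per cell cannot be told apart. The summed level of the neuronal markers was 8018 to 8037 CPM in control, 5769 to 5918 in KD and 7208 to 7726 in OE, and 3 of the 10 fell in KD, namely Mapt, Nefl and Nefm. Markers of fibroblasts and mural cells summed to 337 and 354 CPM in control, 1077 and 1105 in KD and 552 to 762 in OE, with 5 of 9 tested called higher in KD and 6 in OE. The contractile genes Acta2 (mean 96.9 CPM in control, 454 in KD), Tagln (58.2 and 197) and Cnn1 (14.3 and 115) gained most CPM in KD. Myl9 (12.2 and 56.9) gained more than Tagln by fold. Of the list's other genes, Fn1 was at 94.0 CPM in control, 184 in KD and 154 in OE. Col1a1 was at 35.7, 44.7 and 65.3 CPM in the same groups, and Col1a2 at 18.9, 25.5 and 26.5. Col3a1 (11.4 and 9.03) and Dcn (3.24 and 2.59) had lower means in KD. The 8 proliferation markers summed to 286 and 322 CPM in control, 778 and 884 in KD and 507 to 605 in OE, with 8 called higher in KD and 7 in OE. Markers of astrocytes and radial glia summed to 2687 and 3025 CPM in control, 3717 and 4423 in KD and 4245 to 4448 in OE, with 5 of 10 higher and 1 lower in each comparison with control. Fabp7 (means 1152, 1661 and 1944 CPM in control, KD and OE) and Vim (932, 1610 and 1728) made up most of that sum. The gene that fell was Slc1a2 (476, 235 and 184 CPM), and Aqp4 had lower means without a call (30.6, 23.9 and 25.6). No oligodendrocyte or microglial marker was called against control by edgeR, and Csf1r of microglia had 0 counts. The motor neuron markers summed to 23.95 and 29.47 CPM in control, 34.02 and 42.76 in KD and 31.02 to 45.05 in OE. Of the 4 tested, 1 was called higher in each comparison with control, namely Ret (mean 10.7 CPM in control, 22.2 in KD and 22.8 in OE). In each comparison with control 2 of the 4 had a positive difference. The other 7 neuronal markers, set apart after their values were seen, summed to 5395 and 5403 CPM in control, 4676 and 4774 in KD and 4657 to 5057 in OE, so KD and OE overlap without the 3 that fell. Of the 10, 6 had their lowest mean in KD, 3 (Stmn2, Dcx and Snap25) in OE and 1 (Syt1) in control. The means of the mural and proliferation sums place OE between control and KD, as do those of Elavl3, Ctdsp1, Ptbp1, Ctdspl and Rest. Those of Ctdsp2, Nova1 and Nova2 were lowest in OE (38.6, 156 and 118 CPM). Ptbp2 was nearly level in KD and OE (188 and 189 CPM), and the astrocyte and radial glia sum had its highest mean in OE. The part of these shifts in the changes of the switch genes was not tested.

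**Figure D2:**
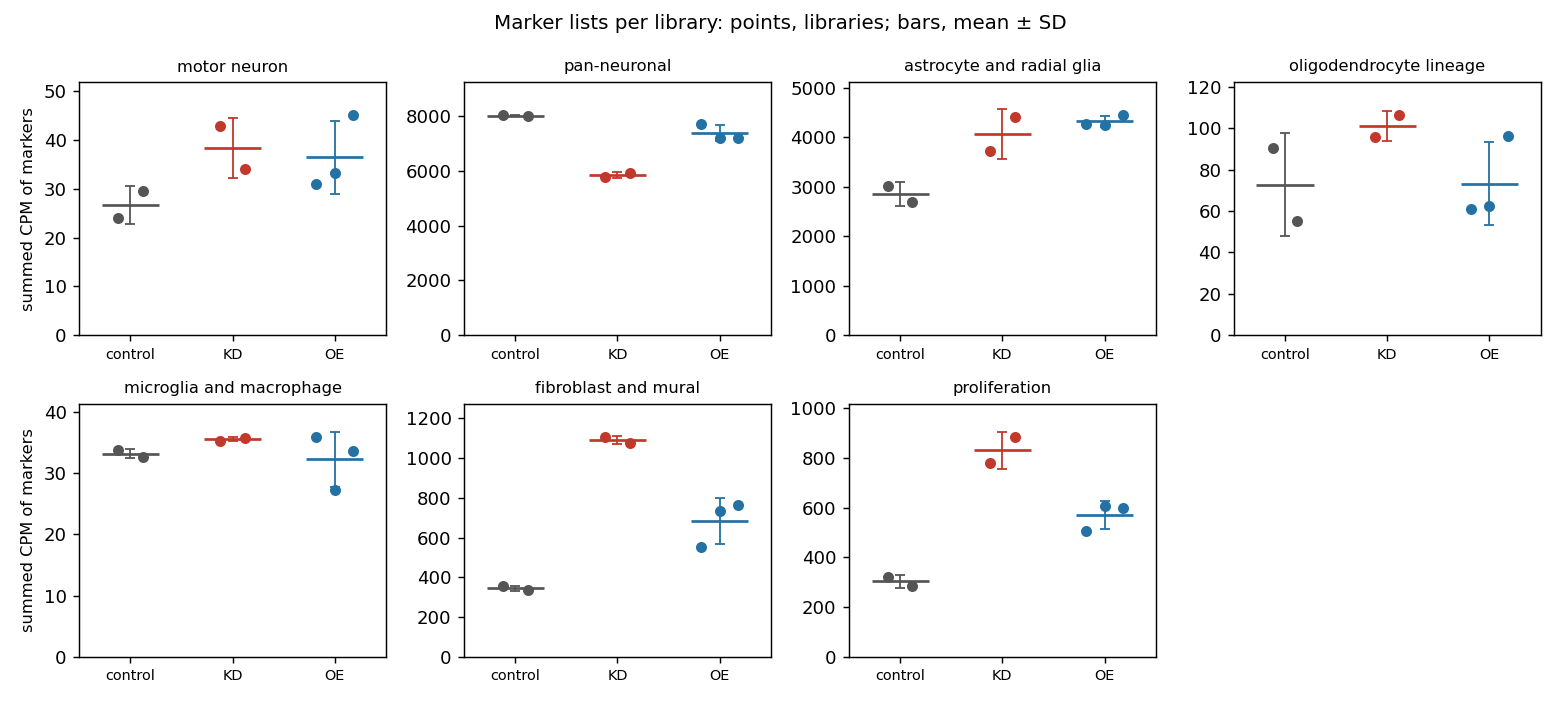
Summed CPM of each marker list in each library, with the group mean and SD. The neuronal sum is lowest in KD (5769 to 5918 CPM), which rests on Mapt, Nefl and Nefm. The fibroblast and mural sum (1077 to 1105 CPM) and the proliferation sum (778 to 884 CPM) are highest there. Acta2, Tagln and Cnn1 gained most CPM in KD within the fibroblast and mural sum.

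Ptbp1 (chr10:79317172-79327516, plus strand) encodes the non-neuronal splicing repressor at the top of the switch. It had 75 and 34 counts in control, 145 and 157 in KD, and 113, 114 and 140 in OE. On the CPM scale these were 36.7 and 21.8 in control, 45.3 and 46.0 in KD, and 34.4, 39.8 and 43.2 in OE. Both KD libraries lie above the other 5, and OE overlaps control, whose libraries are far apart. The difference between KD and control was 0.62 on the log2 scale (SE 0.25, 95% interval 0.10 to 1.13, edgeR adjusted p = 0.0981), which did not pass the test. It passed without control 1 (log2 1.06, edgeR adjusted p = 0.0233) and shrank without control 2 (log2 0.32, edgeR adjusted p = 0.544). For OE against control the difference was 0.40 (SE 0.24, edgeR adjusted p = 0.384), with an interval from -0.09 to 0.88 that holds changes over 1.5-fold.

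Ptbp2 (chr3:119421660-119486306, minus strand), the neuronal paralog, lay the other way in both comparisons without passing the test. Its counts were 429 and 368 in control, 546 and 703 in KD, and 669, 503 and 606 in OE, or 210 and 236, 170 and 206, and 203, 176 and 187 CPM. The highest KD library lies just under the lowest control library, and KD and OE overlap. The log2 difference was -0.24 in KD (SE 0.13, 95% interval -0.49 to 0.02, edgeR adjusted p = 0.222) and -0.23 in OE (SE 0.12, 95% interval -0.4695 to -0.0002, edgeR adjusted p = 0.26). Between OE and KD it was 0.00 (95% interval -0.22 to 0.23, edgeR adjusted p = 0.992).

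The ratio of Ptbp2 to Ptbp1 counts within a library needs no scaling between libraries. It was 5.72 and 10.8 in control, 3.77 and 4.48 in KD, and 5.92, 4.41 and 4.33 in OE. Both KD ratios lie below both control ratios, and OE 1 lies between the control values. The 2 controls differ from each other by more than control 1 differs from any KD or OE library. These ratios are given as a description with no test, and they compare read counts of genes that differ in length.

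**Figure D3:**
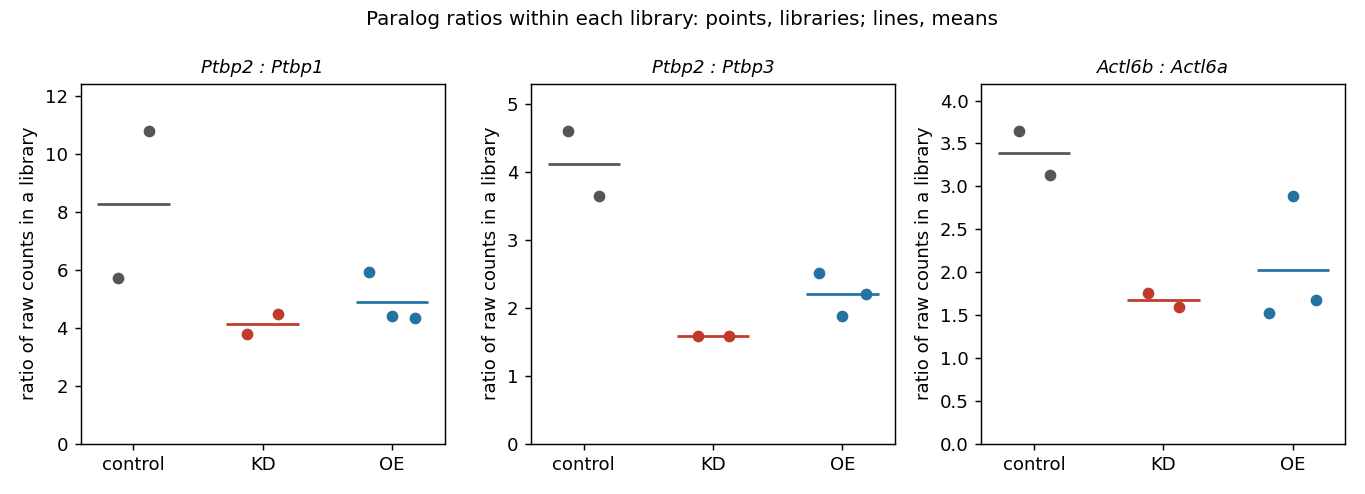
Ratio of raw counts of paralogs within each library, with group means as lines. The Ptbp2 to Ptbp1 ratio is 5.72 and 10.8 in control and 3.77 to 5.92 in the KD and OE libraries, the Ptbp2 to Ptbp3 ratio is 3.64 and 4.61 in control and 1.58 to 2.52 elsewhere, and the Actl6b to Actl6a ratio (BAF subunits, described further on) is 3.13 and 3.65 in control and 1.52 to 2.89 elsewhere.

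The third paralog, Ptbp3, which is expressed in blood cells and other non-neuronal tissues, rose in both KD and OE. It had 93 and 101 counts in control, 345 and 443 in KD, and 266, 268 and 274 in OE. The levels were 55.1 ± 13.6 CPM in control (SD, n = 2), 119 ± 15.7 in KD (n = 2) and 86.4 ± 6.56 in OE (n = 3), with no overlap between any of the groups. The rise was 2.18-fold in KD (log2 1.13, SE 0.19, edgeR adjusted p = 4.01e-05) and 1.58-fold in OE (log2 0.66, SE 0.18, edgeR adjusted p = 0.0161). The call in OE was lost without control 1 (log2 0.42, edgeR adjusted p = 0.26) and without OE 2 (log2 0.61, edgeR adjusted p = 0.0604). The Ptbp2 to Ptbp3 ratio was 4.61 and 3.64 in control, 1.58 and 1.59 in KD, and 2.52, 1.88 and 2.21 in OE.

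Ptbp3 belongs to a list of widely expressed splicing regulators, of which 10 were tested. In KD 3 of the 10 rose and 1 fell (list median log2 0.35, against 0.00 for all tested genes), beside 849 of the 12134 tested genes called higher and 571 called lower. In OE against control 1 rose and 0 fell (median 0.13), beside 4.91% of all tested genes called in either direction. Elavl1, the widely expressed relative of Elavl3 that stabilises messenger RNA, was the one that fell in KD, by 0.79 on the log2 scale (SE 0.13, edgeR adjusted p = 2.45e-05), and it was at 203 ± 1.67 CPM in control, 117 ± 8.33 in KD and 199 ± 7.0 in OE. Between OE and KD 1 gene of the list was higher, Elavl1 (log2 0.77, SE 0.11, edgeR adjusted p = 1.06e-05), and 1 lower, Mbnl2 (log2 -0.62, edgeR adjusted p = 0.0255, but 0.0669 to 0.24 without KD 1, KD 2, OE 2 or OE 3 and 0.0606 with DESeq2). The other rises in KD against control were Mbnl2, a muscleblind splicing factor (log2 0.78, SE 0.21), and Raver2, a protein that binds Ptb proteins (log2 1.08, SE 0.36). The call of Raver2 was lost when any 1 of the control or KD libraries was left out (edgeR adjusted p = 0.0569 to 0.206) and with DESeq2 or limma-voom (adjusted p = 0.111 and 0.0844), and that of Mbnl2 without control 2 (log2 0.50, edgeR adjusted p = 0.172) and without KD 1 (log2 0.72, edgeR adjusted p = 0.0807). Hnrnpa1, a splicing factor of most cells, had 0 counts in the 7 libraries.

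Genes that carry exons repressed by Ptb proteins were followed at the level of the whole gene. Of 10 tested, 3 rose and 1 fell in KD (median log2 0.42) and none was called in OE against control (median 0.10) by edgeR, DESeq2 or limma-voom, with 5 at an unadjusted p under 0.05. These counts stand beside 11.7% of all tested genes called in KD and 4.91% in OE. Among the rises were the actin crosslinker Flna (log2 1.07, SE 0.11, edgeR adjusted p = 1.04e-08) and the actin-binding protein Actn1 (log2 0.61, SE 0.11, lost without KD 1 at log2 0.58, edgeR adjusted p = 0.00753, as the fold fell under 1.5). Flna was at 251 ± 4.05 CPM in control, 527 ± 41.8 in KD and 327 ± 39.3 in OE. Dlg4, which encodes the postsynaptic scaffold PSD-95 and whose RNA is degraded when Ptb proteins act on it, fell in KD from 308 ± 32.3 to 193 ± 28.8 CPM (SD, n = 2 in both), a log2 difference of -0.67 (edgeR adjusted p = 0.000113). The fold of Dlg4 was under 1.5 without control 2 (log2 -0.56) and without KD 2 (log2 -0.53).

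Rest (chr5:77694516-77715457, plus strand), the repressor of neuronal genes, was near the limit of detection. It had 4 and 1 counts in control, 11 and 18 in KD, and 6, 5 and 8 in OE. Both KD libraries lie above the other 5, and OE overlaps control. The log2 difference of 1.65 between KD and control did not pass the test (SE 0.90, 95% interval -0.20 to 3.49, edgeR adjusted p = 0.244). Over all libraries of a group, 29 counts in KD against 5 in control gave a ratio per total count of 3.34 with an exact 95% counting interval of 1.28 to 11.1, which covers counting error only. OE against control gave 1.47 with an interval of 0.533 to 5.05. A rise of Rest of several fold in OE was therefore not excluded at this depth.

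Rcor1 (chr12:112277561-112354112, plus strand), which encodes CoREST, had 1 and 2 counts in control, 3 and 1 in KD, and 1, 0 and 0 in OE. No library held more than 3 counts, so no fold is given, and the gene with 2 of the miR-218 seed matches shown above could not be tested. Other partners of REST had more reads. Of 12 tested partners none was called in KD or OE against control by edgeR, DESeq2 or limma-voom, with 2 and 1 at an unadjusted p under 0.05. Of all tested genes 11.7% were called in KD and 4.91% in OE. Hdac1, a histone deacetylase, was called lower in OE than in KD (log2 -0.84, SE 0.16, edgeR adjusted p = 0.000402). Hdac1 lay above control in KD (log2 0.39, edgeR adjusted p = 0.155) and below it in OE (log2 -0.45, edgeR adjusted p = 0.113), and its call was lost without KD 1 (log2 -0.68, edgeR adjusted p = 0.0523). Hdac2, another deacetylase of the list, gave log2 0.16 in KD and 0.04 in OE. The list medians were -0.08 in KD and -0.15 in OE.

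Of 19 tested neuronal genes known as REST targets, 3 fell and 0 rose in KD (median log2 -0.21), beside 11.7% of all tested genes called in either direction. The list shares Stmn2, Tubb3 and Snap25 with the neuronal markers above. Those that fell were Syp, a synaptic vesicle protein (log2 -0.998, SE 0.22, edgeR adjusted p = 0.00192), Unc13a, a vesicle priming factor (log2 -0.80, SE 0.14, edgeR adjusted p = 0.000123), and Scn2a1, a sodium channel (log2 -0.66, SE 0.11, edgeR adjusted p = 3.87e-05). Without control 2 Syp did not pass (log2 -0.72, edgeR adjusted p = 0.0719), and the fold of Scn2a1 was under 1.5 (log2 -0.55). In OE against control Unc13a fell (log2 -0.70, SE 0.13, edgeR adjusted p = 0.000541; -0.58 without control 2, under 1.5-fold) and no gene of the list rose (median -0.07). Stmn2, an abundant neuronal target, gave -0.12 in KD and -0.25 in OE, under 1.5-fold in both. Gria2, also abundant, gave -0.37 in KD and -0.57 in OE (edgeR adjusted p = 0.000844 and 1.5e-06), again under 1.5-fold. At an unadjusted p under 0.05 there were 10 of the 19 in KD and 8 in OE. The 1 call of the list in OE stands beside 4.91% of all tested genes. Of the list's 19 genes, 3 in KD and 5 in OE had a positive difference, where the median log2 of all tested genes was 0.00 in both.

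Ctdsp1 (chr1:74438083-74443859, plus strand), the small phosphatase that works with REST and is a miR-124 target, was the switch gene that rose in KD. Its counts were 14 and 17 in control, 77 and 92 in KD, and 53, 63 and 50 in OE. On the CPM scale it was at 6.84 and 10.9 in control, 24.0 and 27.0 in KD, and 16.1, 22.0 and 15.4 in OE. The groups do not overlap, with control lowest, OE between and KD highest. The rise in KD was 2.93-fold (log2 1.55, SE 0.36, 95% interval 0.82 to 2.28, edgeR adjusted p = 0.00264). It did not pass without control 1 (log2 1.22, edgeR adjusted p = 0.0612). In OE the difference from control was 1.03 (SE 0.35, 95% interval 0.32 to 1.74, edgeR adjusted p = 0.0713), which missed the threshold, and OE and KD did not differ past the test (log2 -0.52, edgeR adjusted p = 0.286). The authors' deposited table gave log2 1.46 in KD (DESeq2 adjusted p = 0.000199) and 0.96 in OE (DESeq2 adjusted p = 0.0504).

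The paralogs Ctdsp2 (chr10:126415773-126437031, plus strand) and Ctdspl (chr9:118835571-118953116, plus strand) showed no call. Ctdsp2 was at 41.4 ± 1.53 CPM in control (SD, n = 2), 47.8 ± 6.24 in KD (n = 2) and 38.6 ± 8.0 in OE (n = 3). Its log2 difference was 0.20 in KD (95% interval -0.28 to 0.69) and -0.10 in OE (95% interval -0.55 to 0.35). Ctdspl had 37 and 17 counts in control, 60 and 67 in KD, and 57, 51 and 56 in OE. Control 1, at 18.1 CPM, lies beside the KD and OE libraries at 17.3 to 19.7 CPM, and control 2 lies below them at 10.9 CPM. The log2 difference of Ctdspl was 0.38 in KD (95% interval -0.30 to 1.06) and 0.24 in OE (95% interval -0.40 to 0.88), the latter -0.04 without control 2. Ctdspl, the tested gene with a miR-218 seed match, was thus not lower in OE past the test. The difference between Ctdsp1 and its paralogs was not itself tested.

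**Figure D4:**
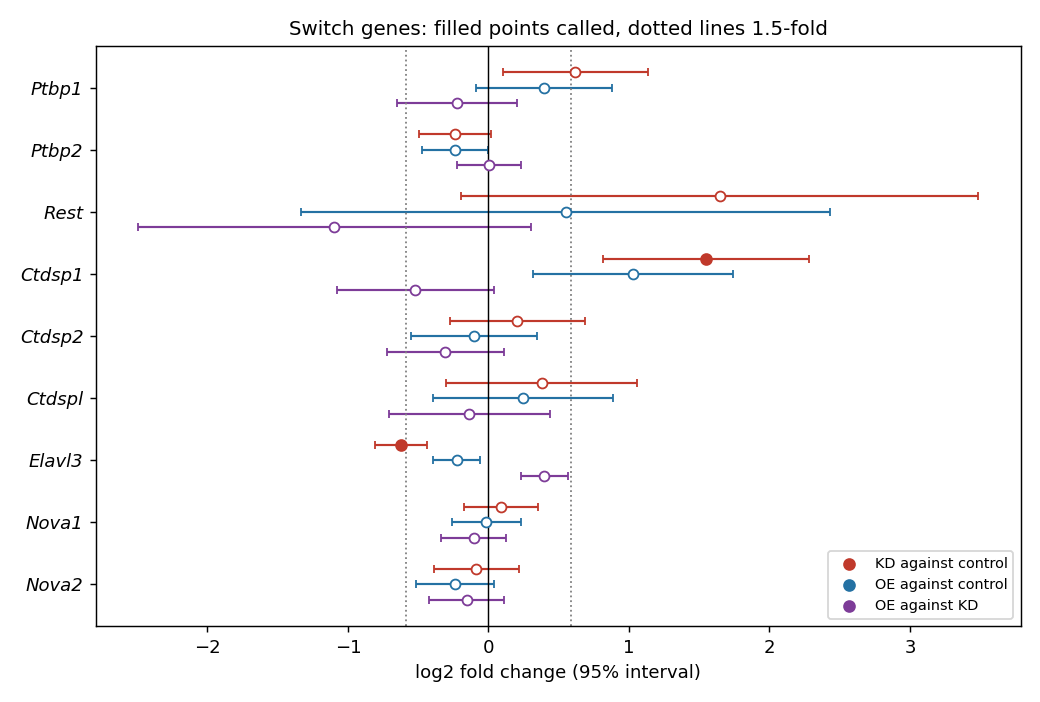
Log2 fold change of the 9 tested switch genes with 95% intervals in the 3 comparisons. Filled points passed adjusted p and the 1.5-fold threshold (dotted), which only Ctdsp1 (1.55) and Elavl3 (-0.62) did, both in KD against control.

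Elavl3 (chr9:21819449-21856467, minus strand), a neuronal RNA-binding protein of the Hu family, fell in KD. Control libraries held 1363 and 1150 of its reads, KD libraries 1536 and 1469, and OE libraries 2072, 1694 and 1872. In CPM these were 666 and 737 in control, 479 and 431 in KD, and 630, 592 and 578 in OE. The groups do not overlap, with control highest, OE between and KD lowest. Elavl3 fell 1.54-fold in KD (log2 -0.62, SE 0.09, 95% interval -0.81 to -0.44, edgeR adjusted p = 6.37e-06). This lies just past the fold threshold, and without control 2 or KD 2 it was -0.55, under 1.5-fold (edgeR adjusted p = 0.000167 and 0.0014). In OE the difference from control was -0.22 (SE 0.08, edgeR adjusted p = 0.101). OE lay above KD by 0.40 (SE 0.08, 95% interval 0.23 to 0.57, edgeR adjusted p = 0.00126), a 1.32-fold difference that is under the fold threshold.

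Nova1 (chr12:47795504-47919762, minus strand) and Nova2 (chr7:19510698-19551031, plus strand), neuronal splicing factors, were not called in any comparison. Nova1 was at 158 ± 3.35 CPM in control (SD, n = 2), 168 ± 0.318 in KD (n = 2) and 156 ± 10.7 in OE (n = 3). Its difference from control was 0.09 in KD (95% interval -0.17 to 0.35) and -0.02 in OE (95% interval -0.26 to 0.23), so changes over 1.5-fold lie outside both intervals. Nova2 was at 140 ± 24.2, 131 ± 6.62 and 118 ± 9.52 CPM, with -0.09 in KD (95% interval -0.39 to 0.22) and -0.24 in OE (95% interval -0.52 to 0.04). For Nova2, too, both intervals exclude changes over 1.5-fold.

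Of 13 other neuronal RNA-binding proteins tested, 1 fell in KD and 0 were called in OE against control (list medians -0.17 and -0.25). These counts stand beside 11.7% of all tested genes called in KD and 4.91% in OE. In OE the count was 0 with edgeR, DESeq2 and limma-voom, with 6 at an unadjusted p under 0.05. In KD, too, 6 of the 13 were at an unadjusted p under 0.05. The gene that fell was Srrm4, the neuronal splicing activator that promotes neuronal exons and counters REST (log2 -0.69, SE 0.22, edgeR adjusted p = 0.0302). Its level was 60.1 ± 13.8 CPM in control, 36.8 ± 2.23 in KD and 46.5 ± 2.78 in OE. The call was lost without control 2 (log2 -0.45, edgeR adjusted p = 0.314), without KD 1 (log2 -0.63, edgeR adjusted p = 0.157), without KD 2 (log2 -0.76, edgeR adjusted p = 0.0902) and with DESeq2 (adjusted p = 0.0511). The most abundant members, Celf4 and Rbfox1, gave log2 -0.33 and -0.25 in OE and -0.07 and -0.21 in KD. In each of the comparisons with control, 1 of the 13 had a positive difference, where the median log2 of all tested genes was 0.00. In KD this was Elavl2, a relative of Elavl3, at 267 CPM in control, 342 in KD and 255 in OE. The authors' deposited table gave it log2 0.355 in KD (DESeq2 adjusted p = 0.0343), under 1.5-fold.

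The BAF chromatin remodelling complex exchanges subunits in the same developmental switch. Of its 4 progenitor subunits, Actl6a rose in KD (log2 0.96, SE 0.25, edgeR adjusted p = 0.008) and Ss18 rose in OE (log2 0.81, SE 0.17, edgeR adjusted p = 0.00174). Actl6a had 52 and 67 counts in control, 201 and 231 in KD, and 164, 88 and 157 in OE, and its call was lost without control 1 (log2 0.60, edgeR adjusted p = 0.177) and without KD 2 (log2 0.90, edgeR adjusted p = 0.0721). None of the 3 tested neuronal subunits was called in KD or OE by edgeR, DESeq2 or limma-voom, with 1 and 3 at an unadjusted p under 0.05. The calls of both subunit lists stand beside 11.7% of all tested genes in KD and 4.91% in OE. Actl6b, the neuronal counterpart of Actl6a, gave -0.05 in KD and -0.46 in OE (edgeR adjusted p = 0.895 and 0.0717), and Ss18l1, the counterpart of Ss18, -0.41 and -0.51 (edgeR adjusted p = 0.128 and 0.0544). The Actl6b to Actl6a count ratio was 3.65 and 3.13 in control, 1.76 and 1.59 in KD, and 1.52, 2.89 and 1.68 in OE, so every KD and OE library lies below both controls.

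Other long-known targets of miR-124 were also examined. Of 9 tested, 3 rose and 0 fell in KD (median log2 0.51), and 2 rose and 0 fell in OE (median 0.53), beside 849 and 443 of the 12134 tested genes called higher. All 9 had a positive difference in KD and in OE, where the median log2 of all tested genes was 0.00. Plod3, a collagen-modifying enzyme, and Gnai3, a G protein subunit, overlapped control in both. The rises in KD were the scaffold Iqgap1 (log2 1.14, SE 0.25, edgeR adjusted p = 0.00127), the glial transcription factor Sox9 (1.06, SE 0.18, edgeR adjusted p = 4.72e-05) and the lysosomal protein Laptm4a (0.61, SE 0.08, and 0.58 without control 2, under 1.5-fold). Those in OE were Cd164, a sialomucin (0.66, SE 0.20), and Sox9 (0.62, SE 0.17). The OE calls were lost without control 2 (0.57 and 0.55, edgeR adjusted p = 0.22 and 0.13), and that of Cd164 also without control 1, OE 1 or OE 3 (edgeR adjusted p = 0.0503 to 0.217) and with DESeq2 or limma-voom (adjusted p = 0.0831 and 0.1). Sox9 in OE also missed the threshold with limma-voom (adjusted p = 0.0645). Laptm4a was not called in OE, but its mean there was close to that in KD (754 CPM in control, 1154 in KD and 1132 in OE). The authors' deposited table gave it log2 0.584 in OE (DESeq2 adjusted p = 2.43e-16), just under 1.5-fold. Non-neuronal cells are known to express these targets, and Sox9 is also in the astrocyte and radial glia list. Mir124a-2 had 1 count in all, Mir124a-1 and Mir124a-3 had 0, and mature miR-124 was not measured.

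**Figure D5:**
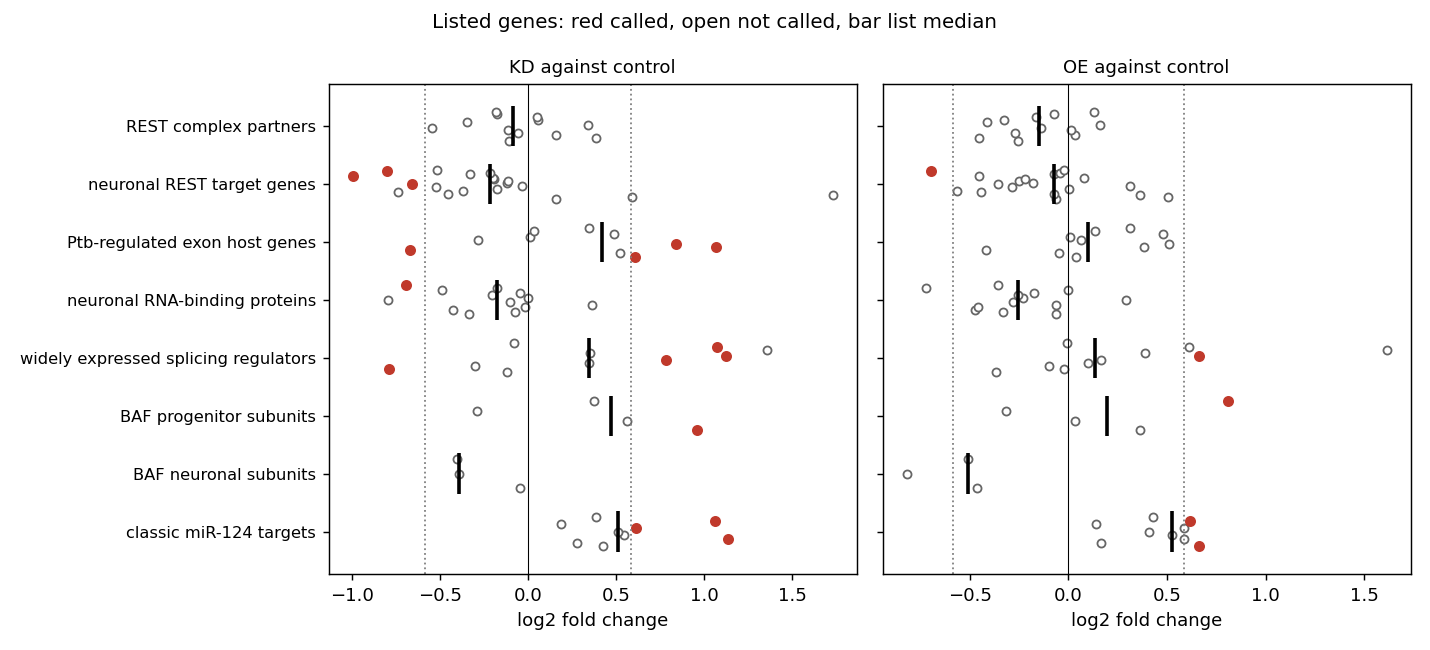
Log2 fold change of every tested gene of each list in KD and in OE against control, with called genes in red and the list median as a bar. The medians of the miR-124 target list are 0.51 and 0.53, and those of the neuronal RNA-binding list -0.17 and -0.25.

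Among 9194 genes of at least 10 CPM on average, those whose profile over the 7 libraries lay closest to that of Ptbp1 were Lamc1, Cflar, 2900076A07Rik, Mrpl36 and Kpna2, with a mean absolute difference of 0.060 to 0.071 in centred log2 CPM. Lamc1 encodes a laminin chain and is itself in the miR-124 target list. The closest to Ptbp2 were Pnpla8, Ddx50, AI854517, Traf4 and Emc4, at 0.043 to 0.052.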

How the data were processed

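Raw counts per gene for 7 libraries were deposited by the authors. TopHat2 mapped the reads to mm9 and HTSeq-count counted those that mapped uniquely, per the labels' protocols. No source used here names the annotation or the strand setting, so reads of overlapping genes cannot be told apart. The authors' deposited table also holds log2 fold changes and adjusted p-values from DESeq2 1.4.5, quoted only where named, and scaled counts, not used here.

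Counts were fitted in edgeR 4.0.16 (R 4.3.3) with TMM scaling, filterByExpr and a robust quasi-likelihood F test over all 7 libraries (4 residual degrees of freedom). Adjusted p-values are Benjamini-Hochberg over 12134 genes, two-sided. Intervals are 95%, pointwise. The fit was checked on simulated counts. Replicates of a group correlated at 0.95 to 0.971 in log2 CPM and differed by 2.90 to 3.41 times the counting variance, so none was counted as a copy. The genes and lists were chosen with earlier results of these data known. From each list up to 4 called genes of greatest change were named, or else the 2 of highest count, and any other gene was chosen after its values were seen. Some genes that this rule names are not reported here. Seed matches used the GENCODE vM1 annotation on the same build. Alternatives used DESeq2 1.42.0, limma-voom (limma 3.58.1), other scaling, no filter, a replicate block and fits without each library.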

Additional observations from a re-analysis of the deposited data

How the results depend on the processing

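The calls of Ctdsp1 and Elavl3 in KD against control kept their direction in 13 alternatives each and passed in 12 and 11 of them. With a library left out, KD against control gave 486 to 833 higher and 396 to 567 lower genes, OE against control 237 to 434 and 103 to 172, and OE against KD 239 to 410 and 110 to 356, with counts moved by over 1.5 times without control 2 (237 higher in OE), OE 3 (294 higher in OE), KD 2 (486 higher in KD, 110 lower in OE than KD), KD 1 (132 lower in OE than KD) and OE 1 (187 lower in OE than KD). The number of switch genes called in KD was 1 to 2 when a library was left out, and 0 in the other comparisons. With limma-voom 223 genes rose in OE against control, in place of 443, and with DESeq2 154 were lower in OE than in KD, in place of 287; the cause was not tested. Differences near 0 that changed sign when a library was left out were those of Ctdspl (-0.0399 to 0.6847) and Nova1 (-0.0616 to 0.0373) in OE, Nova2 (-0.2637 to 0.0966) and Mir218-1 (-0.2897 to 0.0096) in KD, and Ptbp2 between OE and KD (-0.1195 to 0.1578). A further scaling moved the median of all genes by at most 0.01. Libraries share replicate numbers between groups, but deviations of same-numbered libraries correlated at only -0.05 to 0.03, so the numbers were not taken to pair them. With the replicate block 337 and 127 genes were called in OE, 838 and 557 in KD and 325 and 231 between OE and KD, and Ctdsp1 (1.55, adjusted p = 0.00106) and Elavl3 (-0.62, adjusted p = 2.78e-07) passed in KD, while Cd164 in OE and Mbnl2 between OE and KD did not (adjusted p = 0.225 and 0.112). Depth limits Rest and Rcor1, with at most 18 and 3 counts per library. Rest had no value in KD or OE against control when only those groups were fitted, since it missed the count filter there.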
